A study of Mus musculus with 17 samples.

Results

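Cochlear RNA from noise-exposed mice was compared with cochlear RNA from control mice that heard no noise. All animals were 8-week-old male C57BL/6J mice of wild-type genotype. The noise-exposed group (NE) heard noise between 8 and 16 kHz for 2 h at a level of 100 dB SPL. The controls heard no noise and received saline injections on the schedule of the mice given brimonidine. The paper describes no injection for the NE mice, so the groups may differ by injection as well as by noise. RNA was taken on the second day after exposure and 1 library was made per mouse, which gave 3 control and 7 NE libraries out of 17 in the series. The other 7 libraries, from mice given brimonidine, entered only an alternative fit. C57BL/6J mice carry a variant of the cadherin 23 gene that brings early loss of hearing, so both groups share that background. The labels call the material cochlear cells and interstitial cells, a term with no agreed marker set, so that the second label could not be checked.

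The cochlea turns sound into nerve impulses. Hair cells release glutamate onto the fibers of spiral ganglion neurons, supporting cells hold the hair cells in place, and the stria vascularis drives the ion gradient that powers them. All of this sits inside bone with marrow, and the auditory nerve leaves it through a short canal toward the brainstem and cerebellum, where its sheath passes from Schwann cells to oligodendrocytes. Loud sound is known to damage hair cell synapses and to call immune cells into the ear, and dissected tissue can carry marrow, muscle or brain along with the sensory epithelium. In tissue RNA of this kind, fewer cells of a type and less RNA per cell cannot be told apart.

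Of 35285 genes in the deposited table of FPKM values (fragments divided by gene length and by library size), 15950 reached at least 1 FPKM in at least 3 of the 10 libraries and were tested. The controls held 14457732 to 16080796 counted fragments and the NE libraries 15769236 to 18288854. Control 2 stood apart from every other library. Its mean correlation with the NE libraries over the tested genes was 0.817, against 0.954 for control 1 and 0.948 for control 3, and the NE libraries correlated among themselves at 0.978. NE replicate 6 was the NE library that differed most from the rest of its group, with a weight of 0.289 where limma's array weights gave the other NE libraries 1.38 or more. Cochlear identity was plain in all 10 libraries: Coch, the cochlin gene of the spiral ligament and limbus, read 444, 1040.0 and 631 FPKM in controls 1, 2 and 3 and 468 to 719 FPKM in NE. Marrow was just as plain, with S100a9, a calcium-binding protein of neutrophils, at 18564, 3887 and 21797 FPKM in the 3 controls and 17150.0 to 30213 FPKM in NE.

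The comparison asks which transcripts differ on the second day after noise. In a limma fit of log2(FPKM + 1), with a call at an adjusted p (Benjamini-Hochberg) under 0.05 and at least a doubling or halving on that scale, 875 genes were lower in NE (5.49% of those tested) and 43 were higher (0.270%). Every fold change below is the mean of the 7 NE libraries minus the mean of the 3 controls on the log2(FPKM + 1) scale, given as log2 with its standard error, which understates the change of genes under a few FPKM. Because the controls number 3, the change against each control library is also given on its own. Among the 875 lower genes, control 2 was the highest control for 868, and it stood at a median of 2.52 times the mean of controls 1 and 3. Controls 1 and 3, which took part in the call, were above all 7 NE libraries for 868 and 869 of these genes. Over all 15950 genes tested they were so for 3567 and 4689. Among the 43 higher genes, control 2 was the lowest control for 28, control 1 for 11 and control 3 for 4. Without control 1, 2 or 3 the lower calls numbered 1090 (6.83%), 553 (3.47%) and 1033 (6.48%), and the higher calls 153 (0.959%), 31 (0.194%) and 106 (0.665%). The higher calls also numbered 21 to 26 without NE replicate 1, 2, 3, 4, 5 or 7. A gene near 0 in NE could enter the test only where all 3 controls were high. Of the 15950 genes tested, 947 had fewer than 3 NE libraries at 1 FPKM and passed with the help of the controls, and these held 381 of the lower calls. The other 494 lower calls came from 15003 genes that the NE libraries alone would have passed, or 3.29% of them.

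A control library that took no part in the call or in the filter was also set against the NE libraries. These are the same 7 NE libraries that made the call, so the genes were already chosen for their NE values. The shares below are therefore no independent test, and the share of all genes is no matched baseline. For this the filter was set again on the 9 libraries left, a choice made after seeing the data. When control 1 was left out, 786 genes (5.08% of those tested) were called lower, and control 1 itself lay above all 7 NE libraries for 748 of them, or 95.2%, where 20.4% of all genes tested did so. The same share was 98.8% of 340 genes (2.20% called) for control 2, against 43.4% of all genes, and 97.0% of 725 genes (4.68% called) for control 3, against 27.6%. The size differed between the left-out libraries. The median of NE minus the left-out library was -0.93 where control 1 was left out, -2.70 where it was control 2 and -1.0 where it was control 3. Genes called higher carried over far less. A left-out control 1 lay below all NE libraries for 36.8% of 144 such genes, 0.930% of those tested (13.7% of all genes), control 2 for 17.9% of 28, 0.181% of those tested (30% of all genes) and control 3 for 27.1% of 85, 0.549% of those tested (18.0% of all genes).

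**Figure D1:**
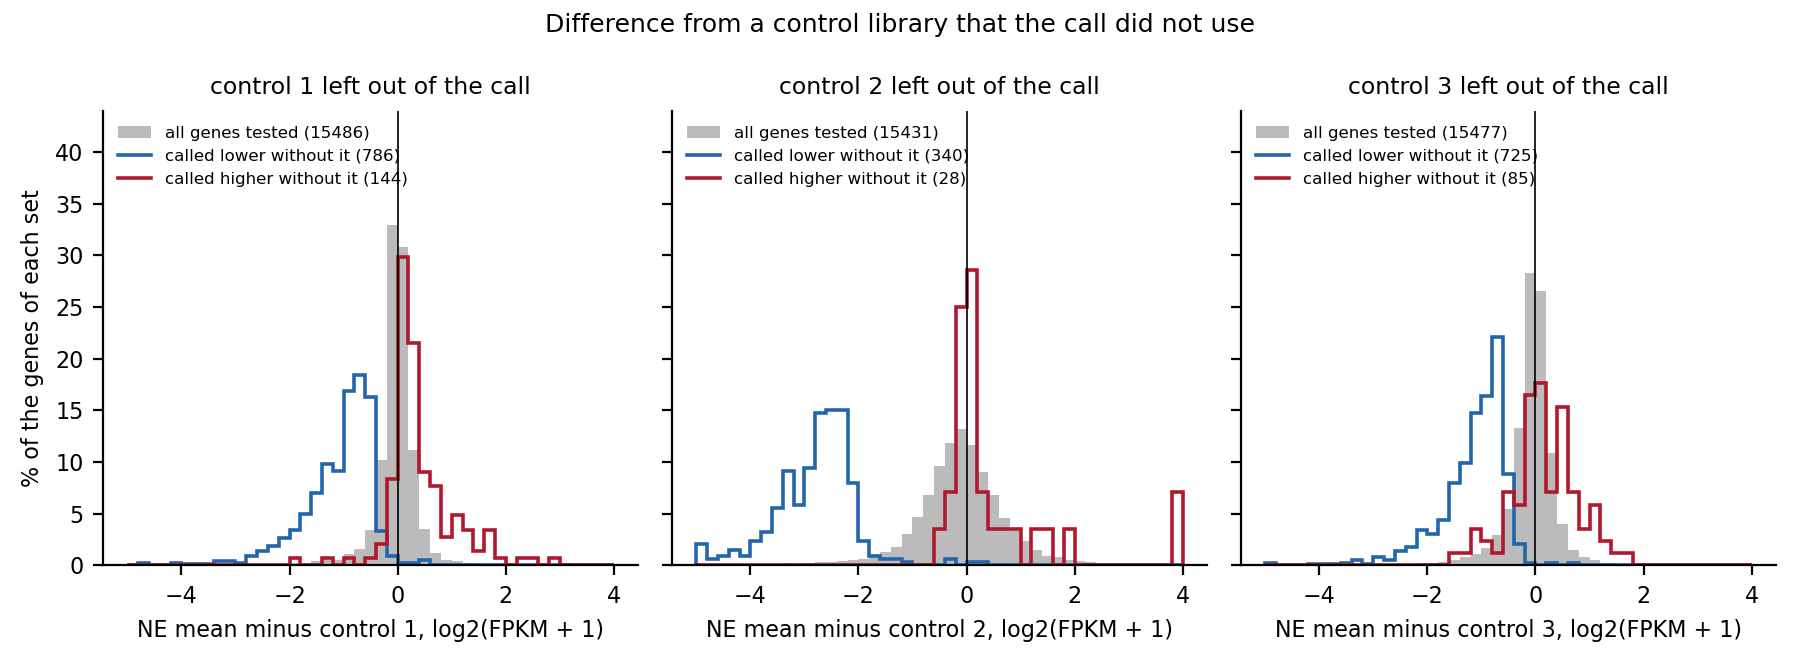
Distribution over genes of the difference, on the log2(FPKM + 1) scale, between the NE mean and a control library that was left out of the call. Each panel leaves out a different control. Gray bars show all genes tested (15486, 15431 and 15477 with the filter set again), blue lines the genes called lower without that control and red lines those called higher, each as a percentage of its own set, and values past the axis are drawn in the end bins. The blue sets sit left of 0 in all 3 panels (medians -0.93, -2.70 and -1.0), while the red sets sit near 0 (medians 0.26, 0.05 and 0.17).

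Genes were then grouped into 51 lists by cell type, pathway or complex, holding 141 of the lower and 21 of the higher genes. Over all tested genes the median fold change was -0.04, with medians of -0.02, -0.12 and -0.04 against controls 1, 2 and 3. Lists of cerebellar and brainstem neurons, synapses and astroglia were higher in each of the 3 controls. Lists of the cochlear epithelium, peripheral nerve sheath, bone and red cells were highest in control 2. Lists of neutrophils and immunoglobulins were lowest in control 2, with far smaller medians against controls 1 and 3 for neutrophils and smaller positive medians against both for immunoglobulins. Muscle genes were low in controls 1 and 3 alone, and clock output and interferon-stimulated genes had medians of 1 direction against each control, mostly of less than a doubling or halving. That was not particular to them, since 26 of the 51 lists had medians of 1 direction, among them MHC class II genes (0.23, 0.51 and 0.64 against controls 1, 2 and 3) and plasma cell genes (0.21, 1.06 and 0.22).

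**Figure D2:**
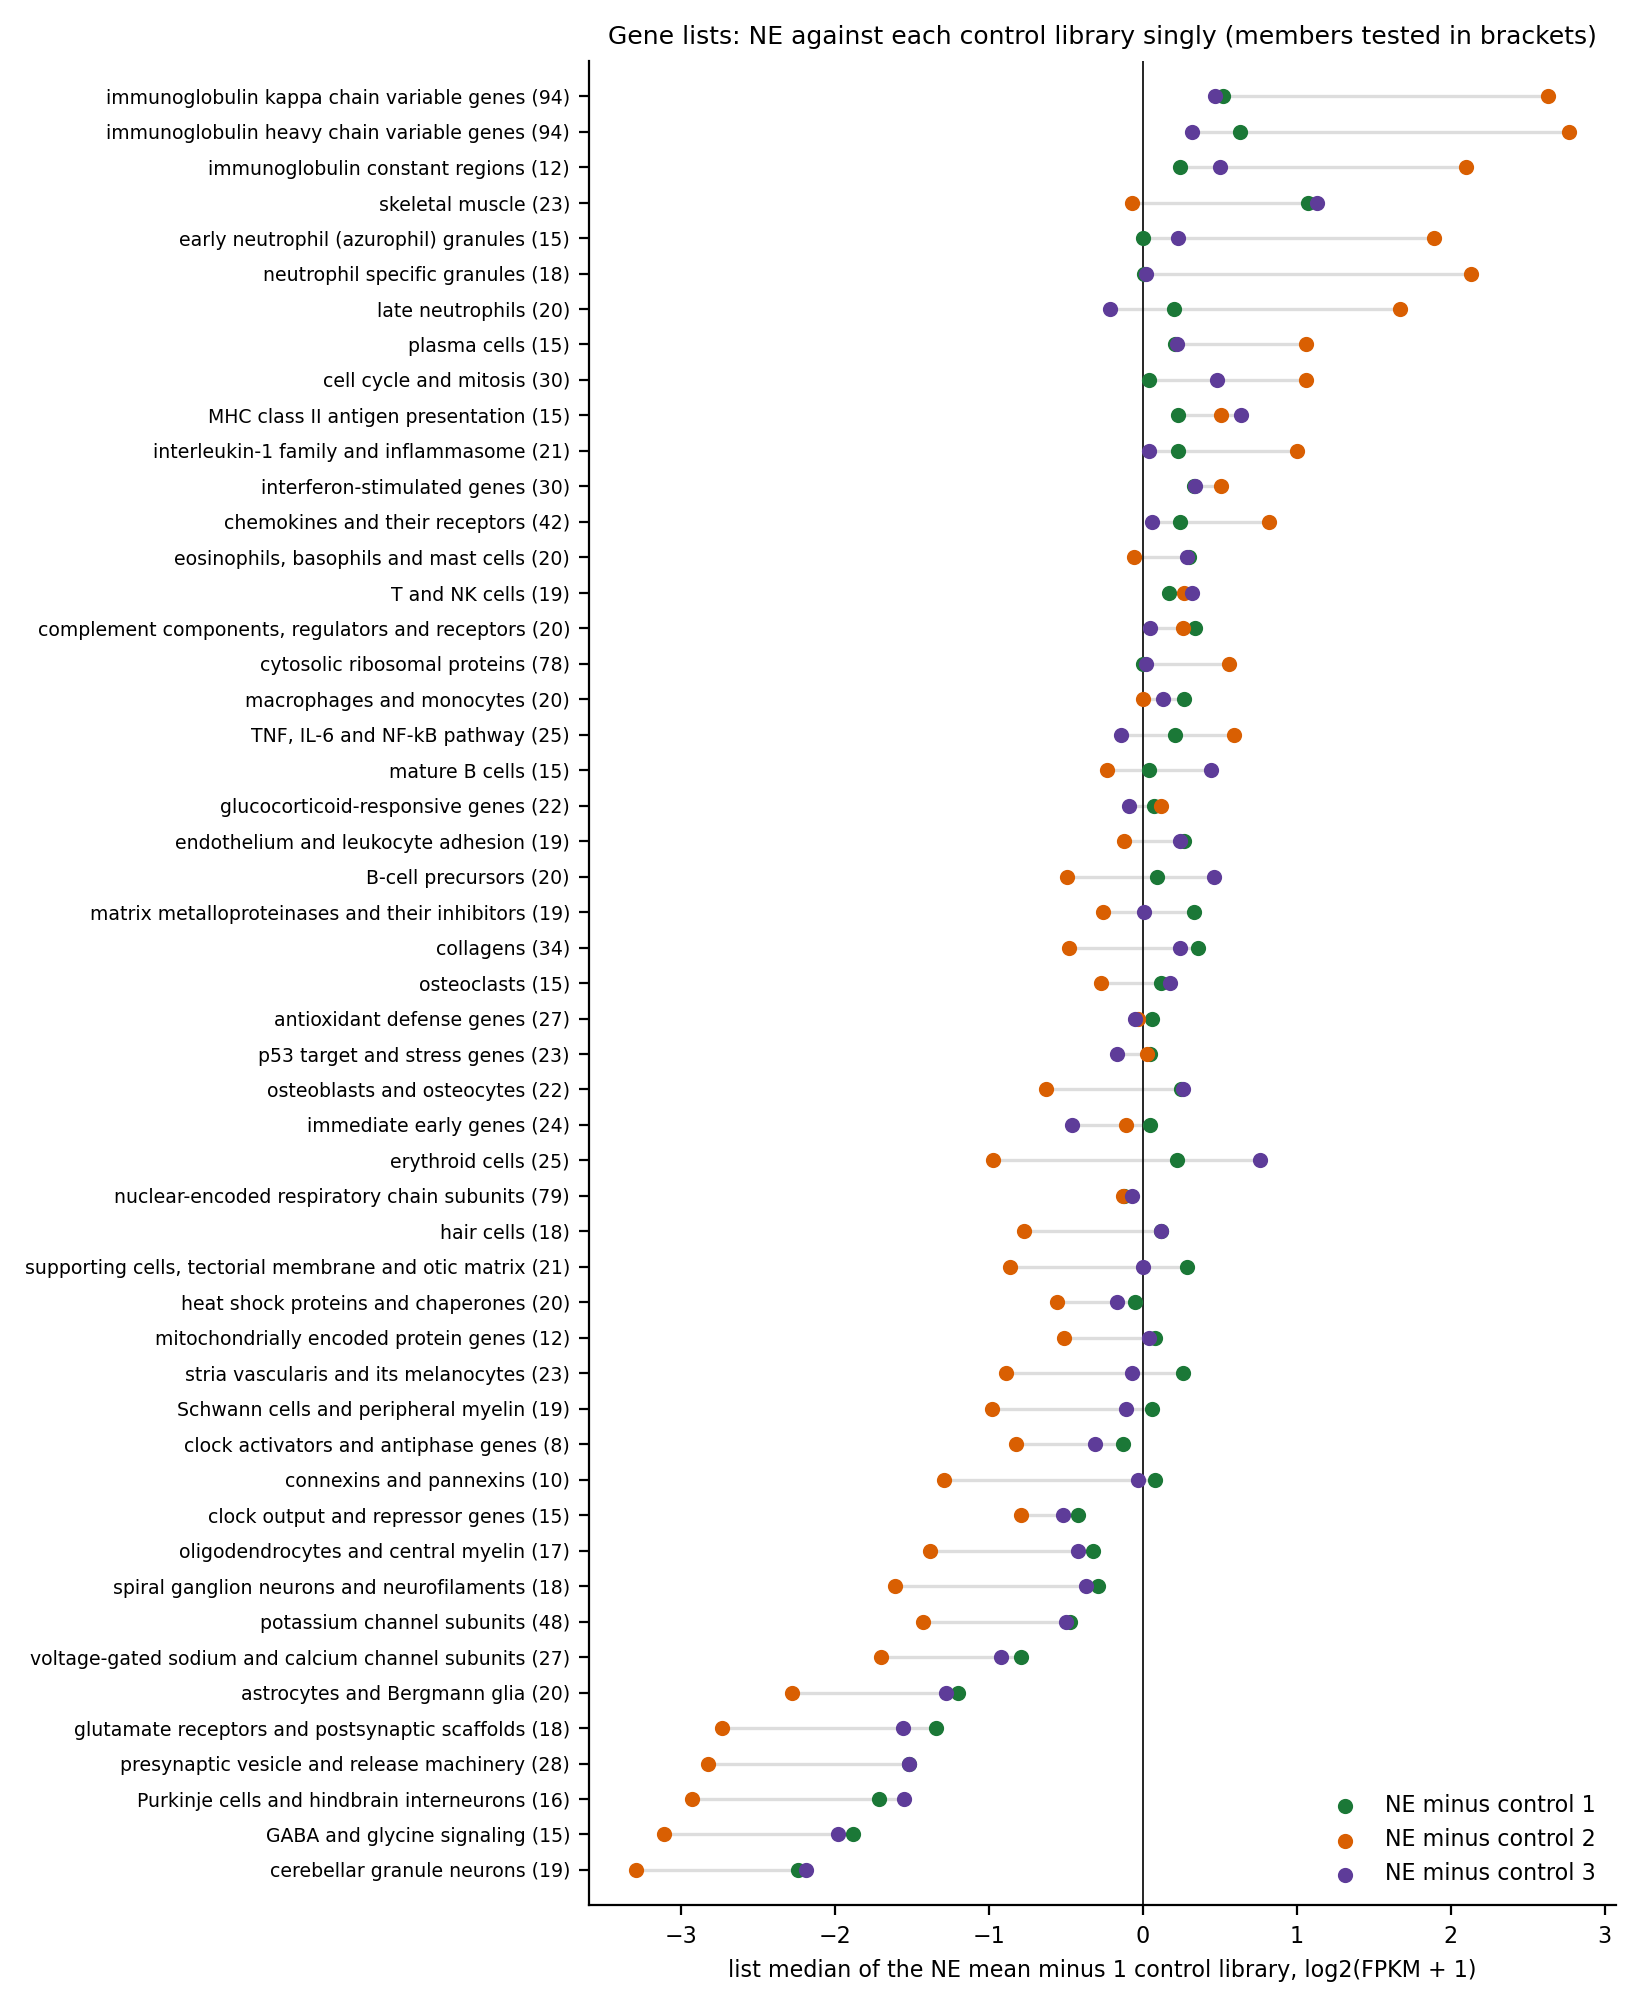
Median over the members of each list of the NE mean minus the value of a single control library, on the log2(FPKM + 1) scale, for control 1 (green), control 2 (orange) and control 3 (purple). The gray bar joins the 3 medians of a list and the number in brackets is the number of members tested. Cerebellar granule neurons lie at -2.24, -3.29 and -2.19, hair cells at 0.12, -0.77 and 0.12, skeletal muscle at 1.07, -0.07 and 1.13 and neutrophil specific granules at 0.01, 2.13 and 0.02 against controls 1, 2 and 3.

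The largest falls in NE were in genes of cerebellar neurons. Of 19 tested genes of granule neurons, the small glutamatergic cells of the cerebellum, 18 were called lower (5.49% of all genes were) and all 19 had the 3 controls above all 7 NE libraries (15.0% of all genes did). Of the 19, 10 passed the filter only with the help of the controls, and the other 9 were all called (3.29% of all genes that passed on the NE libraries alone). Without control 2 there were 15 calls, and 11 with the filter set again as well. Gabra6, a GABA-A receptor subunit of granule neurons, read 31.5, 93.4 and 36.9 FPKM in controls 1, 2 and 3. In the NE libraries it read 0 to 2.08 (median 0.22) FPKM, and NE replicate 1 was the highest of them. Its fold change was -5.20 ± 0.39 (adjusted p = 5e-05). Cbln3, a granule neuron partner of the secreted synapse organizer cerebellin 1, read 39.1, 104 and 44.9 FPKM in the controls and 0.13 to 3.16 (median 0.48) FPKM in NE, a change of -5.21 ± 0.41 (adjusted p = 5e-05). Cbln1, which bridges granule neuron terminals to the receptors on Purkinje cells, read 35.3, 89.9 and 32.1 FPKM in the controls and 0.81 to 2.70 (median 1.01) FPKM in NE, a change of -4.45 ± 0.30 (adjusted p = 5e-05). The groups were separate for all 3 genes, since the lowest control value among them was 31.5 FPKM and the highest NE value 3.16 FPKM.

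Transcription factors of these neurons were lower too. Neurod1, a helix-loop-helix factor needed by granule neurons and also by the spiral ganglion, had a fold change of -4.42 ± 0.30 (adjusted p = 5e-05), with 16.7, 46.7 and 18.1 FPKM in the controls and 0.02 to 0.92 FPKM in NE. Barhl2, a homeodomain factor of hindbrain and retinal neurons, read 3.95, 8.00 and 3.76 FPKM in the controls against 0 to 0.25 FPKM in NE (-2.51 ± 0.19, adjusted p = 5e-05). Zic2, a zinc finger factor with the highest mean of the list, was lower by less. It read 27.0, 69.6 and 30 FPKM in the controls and 13.2 to 17.5 FPKM in NE, where it was still well expressed, and its change was -1.30 ± 0.23 (adjusted p = 0.0042). Without control 2 it was -0.88 (adjusted p = 0.00021), under the minimum fold, so the call on Zic2 rests on that library. Summed over the granule neuron list, the level was 266, 721 and 280.0 FPKM in controls 1, 2 and 3 and 29.1 to 40.9 FPKM in NE, and no member was at 0 in all libraries. The part of hindbrain RNA in the other lower calls was not tested.

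Purkinje cells are the large GABA-releasing output neurons of the same cortex, and 13 of the 16 tested genes of these cells and of hindbrain interneurons were called lower (median -2.12, with 5.49% of all genes called). Only 7 of the 16 passed the filter on the NE libraries alone, and 4 of those were called (median -1.36). Without control 1, 2 or 3 the calls were 13, 12 and 13 on the same genes. With the filter also set again, which takes genes near 0 in NE out of the test, the calls were 4 or 5 and the median -1.01 to -1.60. Car8, a carbonic anhydrase relative of Purkinje cells, read 29.0, 89.2 and 30.5 FPKM in the controls and 0.63 to 1.88 FPKM in NE, a change of -4.51 ± 0.31 (adjusted p = 5e-05). Cnpy1, a regulator of fibroblast growth factor signaling at the midbrain-hindbrain border, read 13.3, 30.3 and 12.6 and 0.01 to 0.80 FPKM. Slc1a6, the glutamate transporter of Purkinje cells, read 12.3, 31.3 and 9.71 and 0.18 to 0.53 FPKM. Ppp1r17, a phosphatase inhibitor of Purkinje cells, and Pcp2, a Purkinje cell protein, changed by -3.68 ± 0.23 and -2.33 ± 0.27. Calb1, the calcium buffer calbindin, is made by Purkinje cells and also by hair cells, and read 24.8, 62.6 and 23.7 FPKM in the controls and 0.49 to 2.35 (median 1.67) FPKM in NE (-3.88 ± 0.32, adjusted p = 6.4e-05). Pvalb, parvalbumin, which is also a calcium buffer of hair cells, spiral ganglion neurons and muscle, was the member with the highest mean. It read 103, 257 and 111 FPKM in the controls and 78.6 to 107 FPKM in NE, and its change of -0.71 ± 0.24 did not pass (adjusted p = 0.077). Summed over the list the level was 253, 638 and 252 FPKM in controls 1, 2 and 3 and 94.0 to 130.0 FPKM in NE.

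**Figure D3:**
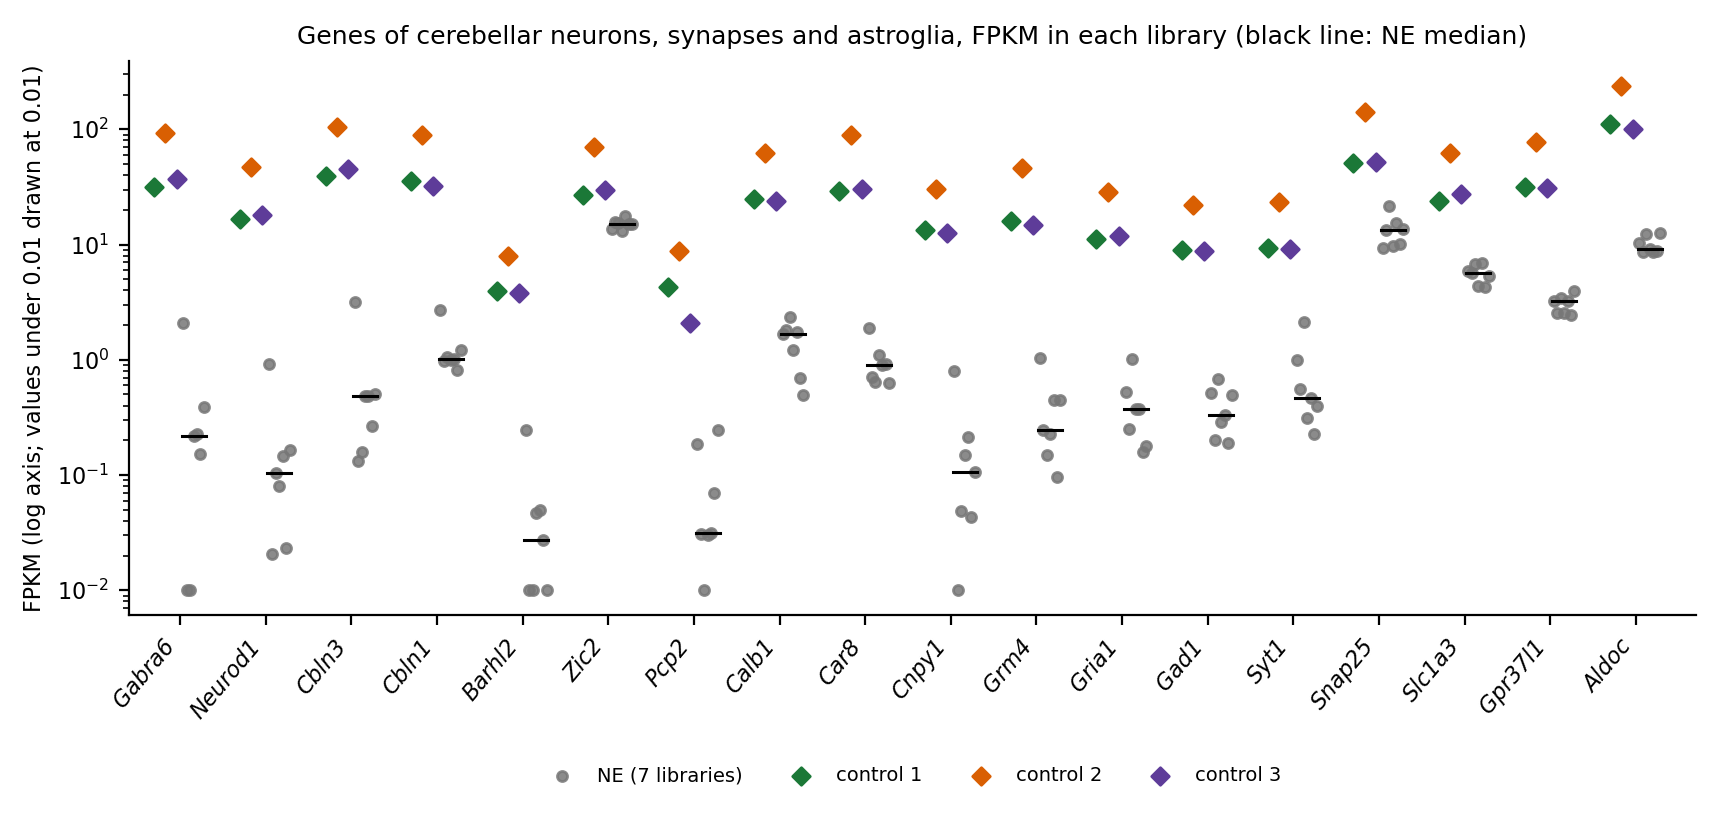
FPKM on a log axis of 18 genes of cerebellar neurons, synapses and astroglia in each of the 10 libraries. Diamonds are controls 1 (green), 2 (orange) and 3 (purple), gray points the 7 NE libraries and black lines their median. For all 18 genes the 3 controls lie above the 7 NE libraries, and control 2 lies above controls 1 and 3. The genes were picked from those called lower, so their separation follows from that choice. Members of the same lists that were not called, such as Pvalb, Gria3, S100b, Gfap and Aqp4, are not shown.

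Genes for sending and receiving signals at synapses were lower as well. Of 28 presynaptic genes, 22 were called lower (5.49% of all genes) and 23 had all controls above all NE libraries (15.0%). Of the 21 that passed the filter on the NE libraries alone, 15 were called (3.29% of all such genes). Syt1, the calcium sensor of fast vesicle release, read 9.36, 23.4 and 9.19 FPKM in the controls and 0.23 to 2.11 (median 0.47) FPKM in NE, a change of -3.06 ± 0.33 (adjusted p = 0.00026). Syn2, a vesicle tether, and Rims1 and Rims2, scaffolds of the release zone, changed by -2.32 ± 0.23, -2.30 ± 0.25 and -2.08 ± 0.23. Other members kept a sizeable level in NE. Snap25, a fusion protein of all neurons, read 51.3, 141 and 52.4 FPKM in the controls and 9.34 to 21.4 (median 13.4) FPKM in NE (-2.41 ± 0.33, adjusted p = 0.00086), and Vamp2, its partner on the vesicle and the member with the highest mean, read 53.6, 91.4 and 50.4 and 26.5 to 33.1 FPKM (-1.11 ± 0.16, adjusted p = 0.0011). Vamp2 was called with all 3 controls and fell under the minimum fold without control 2, at -0.84 (adjusted p = 9.8e-05). Syp, the vesicle membrane protein synaptophysin, changed by -1.92 ± 0.28 (adjusted p = 0.0013).

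Among 18 tested glutamate receptors and postsynaptic scaffolds, 14 were called lower, and among 15 GABA and glycine genes 13 were, where 5.49% of all genes were. The median changes were -1.83 and -2.32. Of these, 9 and 6 genes passed the filter on the NE libraries alone, of which 5 and 4 were called (medians -1.35 and -1.18). Without control 2 and with the filter set again, 8 and 4 were called, with medians of -1.30 and -1.17. Grm4, a metabotropic receptor at granule neuron terminals, read 16.2, 46.0 and 14.9 FPKM in the controls and 0.10 to 1.04 FPKM in NE (-4.11 ± 0.31, adjusted p = 5e-05). The AMPA receptor subunits Gria1, Gria2 and Gria4, which carry fast excitation, changed by -3.58 ± 0.27, -2.72 ± 0.26 and -3.05 ± 0.25, and Grin2c, an NMDA receptor subunit of granule neurons, by -3.83 ± 0.29. Gria3, another AMPA subunit, behaved differently. It read 5.97, 6.93 and 4.59 FPKM in the controls and 4.12 to 5.23 FPKM in NE, the ranges overlapped, and its change of -0.27 ± 0.11 did not pass (adjusted p = 0.13). On the inhibitory side, Gad1 and Gad2, which make GABA, changed by -3.25 ± 0.24 and -2.32 ± 0.23, the GABA-A subunit Gabrd by -3.57 ± 0.28, and Slc32a1, which loads GABA into vesicles, by -2.11 ± 0.24. Adjusted p-values for these genes lay between 5e-05 and 0.00035, and for each the 3 controls were above every NE library.

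Ion channels split by family member. Of 48 potassium channel subunits 21 were called lower, and of 27 sodium and calcium channel subunits 14 were, where 5.49% of all genes were. With all 3 controls none was called higher, and 1 potassium channel gene was without control 3. Of the 31 and 17 that passed the filter on the NE libraries alone, 7 and 5 were called lower (3.29% of all such genes), as against 7 and 7 without control 2 and with the filter set again. Kcnd2, the channel of a fast inactivating current in granule neurons, read 5.6, 13.6 and 6.14 FPKM in the controls and 0.05 to 0.55 FPKM in NE (-2.88 ± 0.23, adjusted p = 5e-05). Kcnt1, a sodium-activated channel, Kcnk3, a leak channel, and Kcnj9, an inward rectifier, changed by -2.62 ± 0.28, -2.34 ± 0.26 and -2.49 ± 0.29. Kcna2, which sits beside the nodes of myelinated axons, was called at -1.46 ± 0.31 but gave -0.98 (adjusted p = 0.022) without control 2. Kcna1, its usual partner, read 5.01, 17.2 and 6.09 and 0.88 to 4.71 FPKM and did not pass (-1.16 ± 0.39, adjusted p = 0.07) except without control 1 (-1.46, adjusted p = 0.034), nor did Kcna10, a channel known from hair cells, at -0.22 ± 0.27 (adjusted p = 0.59). Kcnab2, an auxiliary subunit shared by neurons and blood cells, had the highest mean of the list, 34.9, 28.0 and 26.9 FPKM in the controls and 29.6 to 34.3 FPKM in NE, and did not differ beyond its spread (0.12 ± 0.09, adjusted p = 0.35). Scn2a and Scn2b, a pore and an auxiliary subunit of neuronal sodium channels, changed by -2.53 ± 0.24 and -2.75 ± 0.30. The calcium channel genes Cacna1a and Cacnb4 changed by -2.53 ± 0.25 and -2.43 ± 0.28. Cacna1b, the N-type channel, passed only with control 2 (-1.12 ± 0.19 with it, -0.85, adjusted p = 0.0017 without), and Cacna1c, the L-type channel of heart and smooth muscle, missed the minimum fold at -0.86 ± 0.18, reaching it only without control 1 (-1.01, adjusted p = 0.007).

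Of 20 genes of astrocytes and of Bergmann glia, the astroglia of the cerebellar cortex, 11 were called lower (median -1.52, with 5.49% of all genes called), 9 of them among the 18 that passed the filter on the NE libraries alone. Without control 2 and with the filter set again the median was -0.90, with 9 calls. Aldoc, the aldolase of astrocytes and of stripes of Purkinje cells, read 111, 238 and 101 FPKM in the controls and 8.6 to 12.7 FPKM in NE, a change of -3.67 ± 0.24 (adjusted p = 5e-05). Gpr37l1, a receptor of Bergmann glia, read 31.6, 77.3 and 31.1 and 2.46 to 3.98 FPKM (-3.43 ± 0.25, adjusted p = 5e-05). Mlc1, a membrane protein of astrocyte endfeet, and Acsbg1, a fatty acid ligase of astrocytes, changed by -2.58 ± 0.23 and -2.65 ± 0.26, and Slc1a2, an astrocyte glutamate transporter, by -2.08 ± 0.36. Other members were not called. S100b, also a protein of Schwann cells and supporting cells, read 242, 596 and 162 FPKM in the controls and 181 to 276 FPKM in NE (-0.39 ± 0.32, adjusted p = 0.41), Gfap, the astrocyte filament protein also found in Schwann cells, changed by -0.70 ± 0.20 (adjusted p = 0.041) below the minimum fold, and Aqp4, a water channel of astrocytes and of cochlear supporting cells, by -0.47 ± 0.24 (adjusted p = 0.19). Central myelin genes showed 2 calls in 17 (5.49% of all genes were called lower), and 4, 0 and 4 without control 1, 2 or 3 (6.83%, 3.47% and 6.48%). Of the 2 calls, 1 was among the 15 members that passed the filter on the NE libraries alone (3.29% of all such genes were called). The 2 were Mog, a myelin surface protein, at -1.25 ± 0.23 and Olig1, a factor of the oligodendrocyte lineage, at -1.32 ± 0.26, and neither reached the minimum fold without control 2 (-0.97, adjusted p = 0.015 and -0.93, adjusted p = 0.014). Mbp and Mobp, basic proteins of myelin, read 54.5, 103 and 48.2 and 9.32, 19.3 and 9.52 FPKM in the controls and overlapped with NE (-0.56 ± 0.26, adjusted p = 0.16 and -0.83 ± 0.32, adjusted p = 0.11).

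Several transcripts outside the lists, named here after their values were seen or by their fold change alone, moved with these groups. Rnf112, a brain-enriched ubiquitin ligase, was among the 8 genes with the largest fall, at 24.8, 53 and 18.9 FPKM in the controls and 0.19 to 1.37 FPKM in NE (-4.26 ± 0.30, adjusted p = 5e-05). Mir124a-1hg, the host transcript of the neuronal microRNA miR-124, read 22.3, 59.9 and 20.5 FPKM in the controls and 0.83 to 1.84 FPKM in NE (-3.77 ± 0.29, adjusted p = 5e-05). Meg3, a long noncoding RNA of neurons, read 20, 47.6 and 18.1 and 4.68 to 12.6 FPKM (-1.75 ± 0.33, adjusted p = 0.0052). By class of transcript, the lower calls took in 814 of 13622 protein-coding genes (5.98%) and 20 of 311 long intergenic RNAs (6.43%). Of 24 immediate early genes, which switch on within minutes of stimulation, 6 were called lower (5.49% of all genes were) and 18 were not, with a list median of -0.02. Without control 2 the lower calls were 3, and 2 with the filter set again as well. Of the 22 that passed the filter on the NE libraries alone, 4 were called, and the other 2 calls, Egr4 and Npas4, were in genes that passed only with the help of the controls. Egr4, Nr4a2, Npas4 and Fos changed by -1.67 ± 0.25, -1.88 ± 0.30, -1.37 ± 0.29 and -1.31 ± 0.25, and Nr4a1 and Nr4a3, named after their values were seen, by -1.39 ± 0.31 and -1.58 ± 0.33. Npas4, a factor made mainly by excited neurons, read 1.54, 6.93 and 1.92 FPKM in the controls and 0.34 to 0.73 FPKM in NE, and Fos, which many cells induce, read 17.1, 45.8 and 24.2 and 7.29 to 12.5 FPKM. Without control 2, Npas4 gave -0.85 (adjusted p = 0.0011), Fos -0.93 (adjusted p = 0.0095) and Nr4a1 -1.0 (adjusted p = 0.048), none of them quite at the minimum fold. Junb, the member with the highest mean, read 54.9, 26.9 and 85.5 and 45.8 to 96.5 FPKM (0.29 ± 0.31, adjusted p = 0.53), and Fosl1 changed by -0.44 ± 0.15 (adjusted p = 0.072).

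The neurons of the ear itself gave a mixed picture. Of 18 tested genes of spiral ganglion neurons and neurofilaments, 6 were called lower (5.49% of all genes were) with a list median of -0.66, and 7 had controls 1 and 3 inside the NE range (41.2% of all genes did) and 15 had control 2 above it (44.9%). The medians against controls 1, 2 and 3 were -0.29, -1.61 and -0.37, and without control 2 the list median was -0.26 with 4 calls, and 3 with the filter set again as well. Of the 15 members that passed the filter on the NE libraries alone, 3 were called. The members named here that passed are also known from the brain. Ntrk3, the neurotrophin-3 receptor on which both cochlear and cerebellar neurons depend, read 2.55, 7.22 and 2.78 FPKM in the controls and 0.37 to 0.85 FPKM in NE. It changed by -1.53 ± 0.23 and Scn1a, a sodium channel, by -1.42 ± 0.25. Other members did not pass. Nefh, the heavy neurofilament of large myelinated axons, read 17.8, 53 and 15.0 FPKM in the controls and 7.19 to 22.3 (median 17.0) FPKM in NE, Prph, peripherin of the unmyelinated ganglion neurons, read 0.89, 2.26 and 1.33 and 0.55 to 10.5 (median 1.28) FPKM, and Gata3, a factor needed by the ganglion and the sensory epithelium, read 1.88, 4.92 and 3.14 and 2.36 to 3.37 (median 2.59) FPKM. For these 3 genes controls 1 and 3 lay at or near the NE values, and the changes were -0.63 ± 0.39 (adjusted p = 0.28), 0.24 ± 0.52 (adjusted p = 0.78) and -0.16 ± 0.18 (adjusted p = 0.58).

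Hair cells are few in the tissue, and many of their genes stood at or under the filter. Of 30 hair cell genes 18 were tested, and the 12 that did not pass the filter included Slc26a5, the motor protein prestin of outer hair cells, and Tmc1, a part of the transduction channel. A single member was called lower (5.49% of all genes were), Atp2b2, a calcium pump of hair bundles that is also abundant in cerebellar neurons, at 7.24, 23.3 and 7.53 FPKM in the controls and 0.93 to 2.00 FPKM in NE (-2.24 ± 0.30, adjusted p = 0.00083). Myo7a, the myosin of hair bundles, read 4.98, 4.80 and 4.57 FPKM in the controls and 4.55 to 5.68 (median 5.14) FPKM in NE, so the groups overlapped fully (0.08 ± 0.08, adjusted p = 0.48). Otof, otoferlin of the inner hair cell synapse, read 2.19, 6.06 and 1.96 and 2.34 to 3.22 (median 2.64) FPKM, with only control 2 outside the NE values on the high side (-0.12 ± 0.23, adjusted p = 0.73). Gfi1, a factor of hair cells and also of neutrophil precursors, ran the other way, with 17.1, 7.79 and 16.2 FPKM in the controls, all below the NE range of 18.0 to 27.9 FPKM, and a change of 0.74 ± 0.21 (adjusted p = 0.038) that missed the minimum fold. Over the list, 13 of 18 members had control 2 alone above all NE libraries, against 18.1% of all genes, and the list median of -0.14 became 0.05 after quantile normalization. The 3 controls gave list medians of 0.12, -0.77 and 0.12 for NE minus each of them.

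The other parts of the cochlea showed that arrangement in varying measure. Of 21 genes of supporting cells, tectorial membrane and otic matrix, 15 had control 2 alone above NE (18.1% of all genes did), as did 13 of 23 genes of the stria vascularis and its melanocytes, 4 of 10 connexins and pannexins, 13 of 19 Schwann cell genes and 6 of 17 oligodendrocyte genes. Control 1 in turn was below all NE libraries for 11 supporting cell and 11 strial genes (13.3% of all genes), and the medians of these lists were 0.29 and 0.26 against control 1, -0.86 and -0.89 against control 2 and 0.00 and -0.07 against control 3. Otog, otogelin of the acellular membranes, and Gjb2, connexin 26, whose loss causes deafness, read 4.85, 13.9 and 5.62 and 49.5, 172 and 73.5 FPKM in the controls against 4.44 to 9.11 and 53.6 to 84.7 FPKM in NE. Kcnq1 and Kcne1, the channel through which the stria secretes potassium, and Slc12a2, its chloride cotransporter, read 1.72, 5.18 and 2.46, then 4.39, 14.3 and 5.68 and 21.2, 53.9 and 29.6 FPKM in the controls. In NE the same 3 genes read 1.78 to 2.77, 3.67 to 6.26 and 20.6 to 29.3 FPKM. None of the 5 passed, with adjusted p-values between 0.31 and 0.9. Pmp22, a main protein of peripheral myelin, and Prx, periaxin of the Schwann cell membrane, changed by -0.33 ± 0.24 and -0.07 ± 0.22, and Pmp22 at 31.5, 75.7 and 38.5 FPKM in the controls showed how far control 2 stood from the NE range of 27.0 to 48.8 FPKM.

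Lower calls inside these lists numbered 1 of 21 for supporting cells (4.76%), 1 of 23 for the stria (4.35%) and 2 of 10 for connexins and pannexins (20%), where 5.49% of all genes were called. Slc1a3, the glutamate transporter of supporting cells around inner hair cells and of Bergmann glia, read 24, 61.7 and 27.7 FPKM in the controls and 4.26 to 6.89 FPKM in NE (-2.45 ± 0.25, adjusted p = 0.00021). Atp1b2, a sodium pump subunit of strial marginal cells and of astrocytes, read 65.1, 191 and 65.0 and 27.5 to 42.4 FPKM (-1.47 ± 0.29, adjusted p = 0.0069), with -0.96 (adjusted p = 0.00084) without control 2. Panx2, a brain-rich channel protein, changed by -1.72 ± 0.29 (adjusted p = 0.0026) and Gjc3, a connexin of myelinating glia, by -1.07 ± 0.25 (adjusted p = 0.018), the latter -0.64 (adjusted p = 0.015) without control 2. Gja1, connexin 43, did not pass (-0.64 ± 0.22, adjusted p = 0.077).

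**Figure D4:**
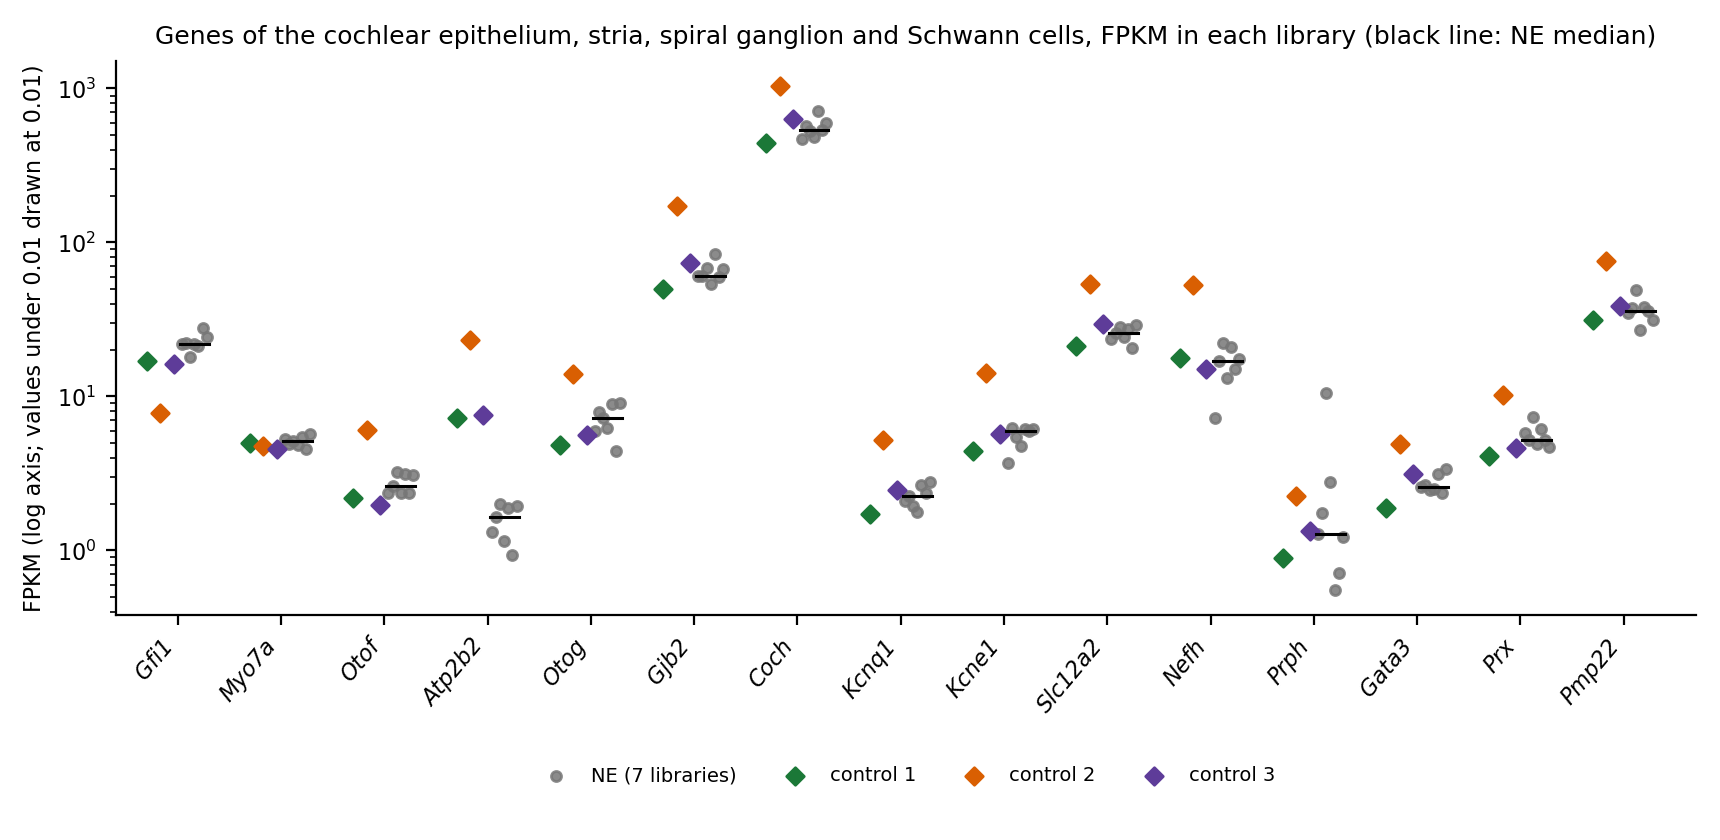
FPKM on a log axis of 15 genes of hair cells, supporting cells, stria vascularis, spiral ganglion and Schwann cells in each of the 10 libraries. Diamonds are controls 1 (green), 2 (orange) and 3 (purple), gray points the 7 NE libraries and black lines their median. Control 2 lies above the NE libraries for most of these genes while controls 1 and 3 lie within or close to their range, as for Pmp22 with 31.5, 75.7 and 38.5 FPKM in the controls and 27.0 to 48.8 FPKM in NE.

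Bone, matrix and vessel genes gave almost no calls. None of 34 collagens, 22 genes of osteoblasts and osteocytes, 15 of osteoclasts or 19 of endothelium and leukocyte adhesion was called in either direction by limma or by its voom fit of recovered fragments. At an unadjusted p under 0.05, 1 collagen, 3 osteoclast and 6 endothelial genes were higher and 1 collagen lower, where 10.6% and 22.3% of all genes were. Control 2 alone was above all NE libraries for 25 of the 34 collagens and 16 of the 22 osteoblast genes (18.1% of all genes). Controls 1 and 3 were both below all NE libraries for 16 of the collagens (5.33% of all genes). Col1a1, a chain of type I collagen of bone, read 251, 521 and 187 FPKM in the controls and 280.0 to 488 FPKM in NE, Spp1, osteopontin, 479, 940.0 and 595 and 494 to 654 FPKM, and Plvap, a protein of fenestrated capillaries, 21.7, 21.1 and 20.2 and 20.6 to 33.4 FPKM. These groups overlapped, and the changes were 0.26 ± 0.30 (adjusted p = 0.57), -0.18 ± 0.21 (adjusted p = 0.56) and 0.33 ± 0.14 (adjusted p = 0.14). Among 19 matrix metalloproteinases and inhibitors 1 was called lower (5.26%, about the 5.49% of all genes). It was Timp4, an inhibitor made in brain and heart, at 4.26, 9.68 and 4.56 FPKM in the controls and 0.29 to 0.97 FPKM in NE (-2.06 ± 0.21, adjusted p = 0.00022). Timp4 passed the filter only with the help of the controls. With any control left out and the filter set again, the list had 0 lower calls. Mmp9, a gelatinase of osteoclasts and neutrophils, read 472, 183 and 402 and 449 to 529 FPKM, below all NE libraries in controls 2 and 3 and inside their range in control 1 (0.59 ± 0.25, adjusted p = 0.12).

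Skeletal muscle genes gave 4 higher calls in 23 (0.270% of all genes were called higher), and the list median was 0.77. Myh2 and Myh1, heavy chains of fast muscle fibers, read 2.10, 4.84 and 2.66 and 6.84, 24 and 8.97 FPKM in the controls and 4.18 to 14.1 and 20.8 to 37.5 FPKM in NE. Acta1, skeletal actin, and Ckm, muscle creatine kinase, read 68.7, 190.0 and 83.1 and 8.33, 25.1 and 10.7 FPKM in the controls and 142 to 397 and 19.3 to 48.3 FPKM in NE. In each of them controls 1 and 3 were below all NE libraries and control 2 was inside their range. The changes were 1.34 ± 0.30 (adjusted p = 0.015), 1.1 ± 0.32 (adjusted p = 0.043), 1.17 ± 0.34 (adjusted p = 0.042) and 1.05 ± 0.31 (adjusted p = 0.047). Over the list, controls 1 and 3 were below all NE libraries for 20 of 23 members (5.33% of all genes), and the calls were 12 without control 2 (0.194% of all genes) and 1 without control 1 or 3 (0.959% and 0.665%). These calls lay close to the threshold. Acta1 lost it without control 1 or 3 and without NE replicate 1, 2, 3, 4, 5 or 7 (adjusted p = 0.063 to 0.1), Myh1 without control 1 or 3 and without NE replicate 1, 2, 3, 4, 5, 6 or 7 (adjusted p = 0.053 to 0.11) and Ckm without control 1 or 3 and without NE replicate 1, 2, 3, 4, 5 or 7 (adjusted p = 0.067 to 0.11). Summed over the list the level was 341, 906 and 385 FPKM in controls 1, 2 and 3 and 606 to 1435 FPKM in NE, and its part in other results was not tested.

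Neutrophil genes of the marrow were lowest in control 2. Over the 15 azurophil granule genes of early neutrophils, the 18 specific granule genes and the 20 genes of late neutrophils, no member was called in limma, where 0.270% of all genes were called higher. At an unadjusted p under 0.05, 7, 4 and 4 members of these lists were higher and none lower (10.6% of all genes were higher by that rule), and the limma voom fit of recovered fragments called none. Ltf, lactoferrin, read 2359, 591 and 2091 FPKM in the controls and 2255 to 2865 FPKM in NE, Elane, neutrophil elastase, 1203, 276 and 898 and 987 to 1438 FPKM, and Retnlg, a resistin-like protein of mature neutrophils, 1239, 453 and 1288 and 793 to 1816 FPKM. Without control 1, 5 of the 15 azurophil and 3 of the 18 specific granule genes were called higher (0.959% of all genes). Among them were Elane (1.18, adjusted p = 0.042) and Mpo, myeloperoxidase (1.22, adjusted p = 0.024). Without control 3, 4 of the 20 late neutrophil genes were called higher (0.665% of all genes). Controls 1 and 3 lay inside or just below the NE range, and control 2 lay far below it. The list medians against controls 1, 2 and 3 were 0.00, 1.89 and 0.23 for azurophil granules, 0.01, 2.13 and 0.02 for specific granules and 0.20, 1.67 and -0.21 for late neutrophils. Summed over the specific granule list, the level was 49122, 11868 and 52449 FPKM in controls 1, 2 and 3 and 44816 to 71424 FPKM in NE. Of the other myeloid lists, none of 20 eosinophil, basophil and mast cell genes and none of 20 macrophage and monocyte genes was called (3 and 5 higher and 1 and 0 lower at an unadjusted p under 0.05, where 10.6% and 22.3% of all genes were), with medians of 0.29 and 0.17. These lists did not set control 2 apart, with medians of 0.30, -0.06 and 0.29 and of 0.27, 0.00 and 0.13 against controls 1, 2 and 3. The mean log2(FPKM + 1) over the macrophage list was 3.95, 3.94 and 4.07 in the controls, below the NE range of 4.13 to 4.27. Ly6c2 and Ccr2, both of inflammatory monocytes, were called higher without control 1 (1.2, adjusted p = 0.032 and 1.12, adjusted p = 0.017) and Cd14, a coreceptor for bacterial lipopolysaccharide, without control 3 (1.44, adjusted p = 0.021), all 3 named after their values were seen. Csf1r, the growth factor receptor of macrophages, read 34.1, 34.3 and 36.7 FPKM in the controls and 38.0 to 45.7 FPKM in NE, a small separation at the edge of the test (0.25 ± 0.07, adjusted p = 0.05).

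Antibody gene segments made up 13 of the 43 rises, 12 variable genes (6.28% of the 191 tested of that class) and the joining gene Iglj3p (8.33% of 12), which was named after its values were seen. Each B cell builds its receptor from single variable segments of the heavy and light chains, and its descendants, the plasma cells, keep them. Of 94 heavy chain and 94 kappa variable genes tested, 6 of each were called higher (0.270% of all genes were). Without control 1, 2 or 3 the counts were 13, 2 and 16 for the heavy chain and 16, 2 and 13 for kappa (0.959%, 0.194% and 0.665% of all genes). Ighv1-80 read 95.4, 20.3 and 119 FPKM in the controls and 169 to 487 (median 339) FPKM in NE (2.32 ± 0.48, adjusted p = 0.0097), and Igkv6-25 read 94.6, 5.55 and 123 and 162 to 437 (median 242) FPKM (2.57 ± 0.75, adjusted p = 0.045). Both were called in each fit that left out a control, as were Ighv1-52 (2.80 ± 0.71) and Igkv9-120 (1.2 ± 0.24). Where the filter was also set again, Igkv6-25 missed the threshold without control 2 (adjusted p = 0.053). Igkv6-25 also lost its call without NE replicate 1, 2, 3, 4, 5, 6 or 7 (adjusted p = 0.064 to 0.08), and Ighv1-52 without NE replicate 4 (adjusted p = 0.05). Control 2 was far below the others, and for 50 of the 94 heavy chain and 50 of the 94 kappa genes it alone was below all NE libraries (15.3% of all genes). Ighv5-12 lost its call without control 1 or 2 and without NE replicate 4 or 7 (adjusted p = 0.05 to 0.13), and its control 3 value of 19.6 FPKM lay inside the NE range of 16.8 to 62.1 FPKM. Ighv10-1, Igkv1-133 and Igkv8-21 changed by 2.82 ± 0.77, 2.04 ± 0.48 and 1.38 ± 0.38. Ighv10-1 lost its call without control 2 or 3 and without NE replicate 1, 2, 4 or 5 (adjusted p = 0.051 to 0.12), Igkv1-133 without control 2 (adjusted p = 0.085) and Igkv8-21 without control 2 or 3 and without NE replicate 1, 2, 3 or 7 (adjusted p = 0.054 to 0.088). These genes have near-identical copies, between which counting can divide reads, so single segments are uncertain.

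None of the 12 constant regions, which many clones share, was called with all 3 controls. Without control 1 Igha, of IgA, was called higher (1.38, adjusted p = 0.025) and without control 3 Ighg2b, of IgG2b (2.56, adjusted p = 0.042), both named after their values were seen. Igkc, the kappa constant region, read 7506, 1019 and 6971 FPKM in the controls and 5310.0 to 17269 FPKM in NE, and Ighg1, the constant region of IgG1, 410.0, 33.5 and 468 and 298 to 1212 FPKM. Controls 1 and 3 were inside the NE range for both (1.37 ± 0.69, adjusted p = 0.19 and 1.5 ± 0.75, adjusted p = 0.19). Of 15 plasma cell genes Irf4, the factor that drives plasma cell fate, was called, at 6.08, 4.19 and 4.45 FPKM in the controls and 5.82 to 17.9 FPKM in NE (1.05 ± 0.28, adjusted p = 0.031). Its call was lost without control 2 or 3 and without NE replicate 1, 2, 3, 4 or 5 (log2 fold change 0.95 to 1.06, adjusted p = 0.047 to 0.11). Without control 1, 2 or 3 the list had 3, 0 and 0 higher calls (0.959%, 0.194% and 0.665% of all genes). Jchain, which joins antibody multimers, did not pass (1.09 ± 0.45, adjusted p = 0.12) except without control 1 (1.56, adjusted p = 0.036). None of 20 B-cell precursor genes, 15 mature B-cell genes, 19 T and NK cell genes or 15 genes of MHC class II presentation was called by limma. At an unadjusted p under 0.05, 3, 2, 5 and 7 of them were higher and 1, 1, 1 and 0 lower (10.6% and 22.3% of all genes were), and the voom fit called 1 B-cell precursor gene higher. Without control 1, 2 B-cell precursor genes were called higher and 1 T and NK cell gene lower, and without control 3, 1 gene of each of these lists was called lower. The class II list came closest, with a median of 0.45 and 3 members past the adjusted p without the minimum fold, and Cd74, its invariant chain, read 254, 223 and 154 FPKM in the controls and 201 to 425 FPKM in NE (0.55 ± 0.25, adjusted p = 0.15).

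Inflammatory signals varied widely among the controls. None of 21 interleukin-1 and inflammasome genes and none of 25 genes of the TNF, IL-6 and NF-kB pathway was called by limma or by the voom fit, and 9 and 6 of them were higher at an unadjusted p under 0.05 (10.6% of all genes were). Il1a, an alarm cytokine, read 5.12, 2.54 and 28.4 FPKM in the controls and 7.56 to 15.2 FPKM in NE, and Tnf, the tumor necrosis factor, 11.4, 2.57 and 44.4 and 9.87 to 27.9 FPKM. Control 3 was above and control 2 below all NE libraries for both, and the changes were 0.45 ± 0.52 (adjusted p = 0.57) and 0.30 ± 0.60 (adjusted p = 0.76). Il1rn, the natural antagonist of interleukin-1, and Nfkbia, the inhibitor that NF-kB induces, changed by 0.79 ± 0.31 and 0.13 ± 0.32 without passing. With limma's array weights, which weight control 3 most, Il1a and Tnf passed as lower (-1.12 with adjusted p = 0.026 and -1.40 with adjusted p = 0.0051). Without control 1, 1 of the 21 interleukin-1 and inflammasome genes was called higher (0.959% of all genes were). Without control 3, 1 of the 25 TNF, IL-6 and NF-kB pathway genes and 6 of the 21 interleukin-1 and inflammasome genes were (0.665% of all genes). Among those 6 were Il1a (1.33, adjusted p = 0.016), Il1rn (1.24, adjusted p = 0.0085) and Il1b (1.69, adjusted p = 0.023). Il1b, the main secreted cytokine of that family, read 33.8, 19.4 and 183 FPKM in the controls and 56.4 to 197 FPKM in NE and did not pass with all 3 controls (0.76 ± 0.58, adjusted p = 0.38). Of 42 chemokines and receptors, 2 were called lower (4.76%, against 5.49% of all genes) and 1 higher (2.38%, against 0.270%). The higher calls were 3, 0 and 3 without control 1, 2 or 3 (0.959%, 0.194% and 0.665% of all genes). The lower calls were 2, 1 and 2 (6.83%, 3.47% and 6.48%). Ackr1, a chemokine scavenger of venules and of Purkinje cells, read 12.8, 22.6 and 14.4 FPKM in the controls and 3.72 to 7.99 FPKM in NE (-1.35 ± 0.22, adjusted p = 0.0023), Ccl27a, a skin chemokine, 5.44, 11.3 and 5.52 and 1.91 to 3.03 FPKM (-1.17 ± 0.19, adjusted p = 0.0021), and Cxcl10, a T-cell attractant that interferon induces, 5.99, 2.14 and 3.51 and 6.07 to 14.3 FPKM (1.11 ± 0.29, adjusted p = 0.029). Without control 2 Ccl27a gave -0.86 (adjusted p = 0.0007), under the minimum fold. Cxcl10 lost its call without control 2 or 3 and without NE replicate 2 or 7 (adjusted p = 0.051 to 0.13). Of 20 complement genes 1 was called lower (5.0%, against 5.49% of all genes), and 1 was called higher without control 1. The lower gene was Vtn, vitronectin, which blocks the terminal complex (-1.24 ± 0.27, adjusted p = 0.012, and -0.78, adjusted p = 0.0091 without control 2), while C1qa, a recognition subunit, read 67.8, 82.4 and 80.6 and 75.5 to 94.2 FPKM and did not pass (0.10 ± 0.11, adjusted p = 0.53).

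Interferon-stimulated genes and the output genes of the circadian clock differed by small amounts, with list medians of the same direction against every control. Interferons reach the nucleus through STAT and IRF factors that bind an element searched here as GAAA, 2 bases of any kind and GAAA again (the ISRE), and the clock proteins CLOCK and BMAL1 bind an E-box written CACGTG, while the clock output factors DBP, TEF and HLF bind a D-box written TTATGTAA. Either strand was searched in the 250 bases before each start site of the RefSeq promoter table (GRCm38.p6). The E-box was present for 5 of 12 clock output genes with an entry (41.7%) and for 6.86% of all 27025 genes in the table, the D-box for 1 of 12 (8.33%) and 0.977%, and the interferon element for 12 of 22 genes (54.5%) and 3.46%. A gene counts here if any of its start sites holds a match. Over the 32851 single promoters the shares were 6.02%, 0.819% and 2.98%. The lists were made of genes known to answer to these factors, so their higher shares follow from that choice and are no result of these data. A match of letters is no evidence that a factor was bound here. Matches were also present for genes that did not pass the adjusted p. These were Isg15, Oas1a, Bst2, Stat2, Rsad2, Ifit3, Ifit3b and Ifit1 for the interferon element, the larger part of the genes with it. For the E-box they were Bhlhe41 and Cry1. The windows below are those of the clock and interferon genes that passed the adjusted p and hold a match, at the match nearest to a start site, written 5′ to 3′ on the strand of the gene with the motif in capitals and 10 flanking bases on each side.
Tef (E-box, chr15:81802536-81802561, + strand): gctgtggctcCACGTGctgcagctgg
Per1 (E-box, chr11:69098773-69098798, + strand): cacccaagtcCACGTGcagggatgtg
Ciart (E-box, chr3:95882257-95882282, - strand): tgcagaaccgCACGTGtctgggaggg
Per3 (D-box, chr4:151044806-151044833, - strand): ccgcccgcggTTATGTAAcccccgccgt
Gbp2 (ISRE, chr3:142620594-142620623, + strand): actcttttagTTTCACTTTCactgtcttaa
Gbp3 (ISRE, chr3:142559995-142560024, + strand): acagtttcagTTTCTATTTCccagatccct
Cxcl10 (ISRE, chr5:92349083-92349112, - strand): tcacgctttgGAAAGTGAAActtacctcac
Oas3 (ISRE, chr5:120777715-120777744, - strand): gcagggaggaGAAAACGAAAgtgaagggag
In Gbp2 and Gbp3 the interferon element lies on the opposite strand and reads TTTC, 2 bases and TTTC here. Of the interferon windows Gbp2, Gbp3 and Oas3 lie within 75 bases of the start site, and Cxcl10 lies farther, 204 to 213 bases before it.

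Of 15 clock output and repressor genes none reached the minimum fold, and 9 were lower at an adjusted p under 0.05 (12.0% of all genes were). The voom fit called 1 member lower, and rescaling to equal FPKM totals gave 1 lower call as well. The list median was -0.56, and -0.42, -0.79 and -0.52 against controls 1, 2 and 3. Tef, an output factor with an E-box above, read 14.6, 25.4 and 15.4 FPKM in the controls and 6.22 to 10.3 FPKM in NE, a change of -0.99 ± 0.17 (adjusted p = 0.0033). That is just short of the minimum fold, which it passed without control 1 or 3 (-1.13, adjusted p = 0.0032 and -1.09, adjusted p = 0.0058) and without NE replicate 2, 4 or 7 (adjusted p of all 5 fits 0.0032 to 0.0079). Dbp, its relative and the most rhythmic output factor, read 5.04, 4.03 and 5.05 and 1.68 to 3.34 FPKM (-0.64 ± 0.14, adjusted p = 0.012). All controls lay above all NE libraries for both genes. Hlf, the remaining factor of that family, was at -0.69 ± 0.21 (adjusted p = 0.05), and Bhlhe40, a repressor, at -0.24 ± 0.14 (adjusted p = 0.25). The genes that follow were named after their values were seen. Per1, Per3 and Ciart, repressors with a motif above, changed by -0.81 ± 0.22 (adjusted p = 0.037), -0.49 ± 0.12 (adjusted p = 0.019) and -0.46 ± 0.09 (adjusted p = 0.0069). Cry2, a repressor, Usp2, a rhythmic ubiquitin protease, and Nr1d1 and Nr1d2, the REV-ERB receptors, changed by -0.79 ± 0.14, -0.94 ± 0.16 (called without control 1 or 3, at -1.0, adjusted p = 0.0053 and -1.1, adjusted p = 0.002), -0.56 ± 0.15 and -0.77 ± 0.14, and Nr1d1 read 12.6, 14.9 and 13.1 FPKM in the controls and 5.68 to 10.5 FPKM in NE. Per2 overlapped between the groups (-0.48 ± 0.22, adjusted p = 0.16). Without control 2, Per1, Per3 and Nr1d1 no longer passed (-0.71, adjusted p = 0.14, -0.39, adjusted p = 0.078 and -0.49, adjusted p = 0.12), and Tef, Dbp, Ciart, Cry2, Usp2 and Nr1d2 did, at 0.0027 to 0.016. The labels give no time of day for the collection of each mouse.

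The 8 tested genes of clock activators, their nuclear receptors and the kinases of the clock gave 1 call (5.49% of all genes were called lower). All 8 were below 0 with a median of -0.35, and -0.13, -0.82 and -0.31 against controls 1, 2 and 3, and 4 of them had all controls above all NE libraries (15.0% of all genes). Rora, a nuclear receptor of the clock and of Purkinje cells, read 4.39, 11.5 and 5.13 FPKM in the controls and 1.21 to 2.17 FPKM in NE (-1.43 ± 0.22, adjusted p = 0.0018). Arntl, which encodes BMAL1, read 2.43, 5.55 and 2.41 and 1.85 to 2.41 FPKM, Clock 3.71, 7.84 and 4.82 and 2.20 to 4.17 FPKM, and Npas2 1.18, 2.86 and 1.84 and 0.86 to 1.98 FPKM. None of the 3 passed (-0.46 ± 0.18, adjusted p = 0.11, -0.51 ± 0.19, adjusted p = 0.093 and -0.20 ± 0.18, adjusted p = 0.45). Glucocorticoids are released under stress and also set peripheral clocks. With all 3 controls, the 22 tested genes known to respond to them gave 2 higher calls (0.270% of all genes were called higher) and no lower one. Without control 1, 2 or 3 the higher calls were 1, 0 and 2 (0.959%, 0.194% and 0.665% of all genes). The lower calls were 1, 0 and 0 (6.83%, 3.47% and 6.48%). Fkbp5, a chaperone that damps the receptor, read 12.0, 5.42 and 10.7 FPKM in the controls and 16.2 to 25.3 FPKM in NE (1.06 ± 0.21, adjusted p = 0.0081, and 0.75, adjusted p = 0.017 without control 2), and Zbtb16, a zinc finger factor, 1.23, 2.07 and 1.88 and 2.06 to 8.2 FPKM (1.02 ± 0.29, adjusted p = 0.043). Zbtb16 lost its call without control 1, 2 or 3 and without NE replicate 1, 2, 3, 4, 5 or 7 (adjusted p = 0.051 to 0.083). Tsc22d3, the glucocorticoid-induced leucine zipper, ran the other way, at 38.4, 35.7 and 43.7 and 19.6 to 34.0 FPKM (-0.57 ± 0.17, adjusted p = 0.047), below the minimum fold. With no fold limit, 3 members were higher and 4 lower, and the list median was 0.12.

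Of 30 interferon-stimulated genes 2 were called higher (0.270% of all genes were). Without control 1, 2 or 3 the higher calls were 3, 0 and 1 (0.959%, 0.194% and 0.665% of all genes). With all 3 controls, 11 were higher at an adjusted p under 0.05 (2.12% of all genes were). The 3 controls were below all 7 NE libraries for 11 of the 30 (3.24% of all genes), and the list median was 0.40, with 0.33, 0.51 and 0.34 against controls 1, 2 and 3. Gbp2, a guanylate-binding protein that attacks intracellular microbes, read 34.3, 9.53 and 21.3 FPKM in the controls and 32.5 to 83.8 FPKM in NE, overlapping with control 1 (1.37 ± 0.38, adjusted p = 0.037). Its call was lost without control 2 or 3 and without NE replicate 1, 2, 3, 4, 5 or 7 (adjusted p = 0.052 to 0.16). Ifit1 and Ifit2, which bind viral RNA, Isg15, a ubiquitin-like tag, and Ifi27l2a, whose level was highest, changed by 0.45 ± 0.18, 0.28 ± 0.10, 0.42 ± 0.18 and 0.39 ± 0.13, none past the test. The genes that follow were named after their values were seen. Oasl1 and Oasl2, relatives of the RNA-sensing OAS enzymes, read 3.74, 2.85 and 3.46 and 15.4, 9.61 and 16.2 FPKM in the controls and 4.59 to 7.58 and 19.3 to 27.1 FPKM in NE, and neither overlapped (0.70 ± 0.13, adjusted p = 0.0058 and 0.75 ± 0.16, adjusted p = 0.012). Xaf1, an apoptosis-linked interferon target, was even across the controls at 4.40, 4.58 and 4.59 FPKM and read 5.15 to 7.24 FPKM in NE (0.39 ± 0.10, adjusted p = 0.029). Zbp1, a nucleic acid sensor, Mx1, an antiviral GTPase, Gbp3, Oas3, Rtp4 and Irf7, the last a factor that amplifies the response, changed by 0.98 ± 0.27, 0.80 ± 0.20, 0.78 ± 0.22, 0.72 ± 0.17, 0.55 ± 0.14 and 0.41 ± 0.11. Without control 2 Oasl1, Oasl2 and Oas3 passed (0.62, adjusted p = 0.025, 0.52, adjusted p = 0.035 and 0.45, adjusted p = 0.045), while Zbp1, Xaf1, Mx1, Gbp3, Rtp4 and Irf7 did not (0.56, adjusted p = 0.12, 0.39, adjusted p = 0.064, 0.81, adjusted p = 0.064, 0.61, adjusted p = 0.16, 0.37, adjusted p = 0.1 and 0.36, adjusted p = 0.1), nor did Gbp2 and Cxcl10. Zbp1 reached the minimum fold without control 1 or 3 (1.21, adjusted p = 0.019 and 1.18, adjusted p = 0.033) and without NE replicate 6 (adjusted p of all 3 fits 0.019 to 0.042).

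**Figure D5:**
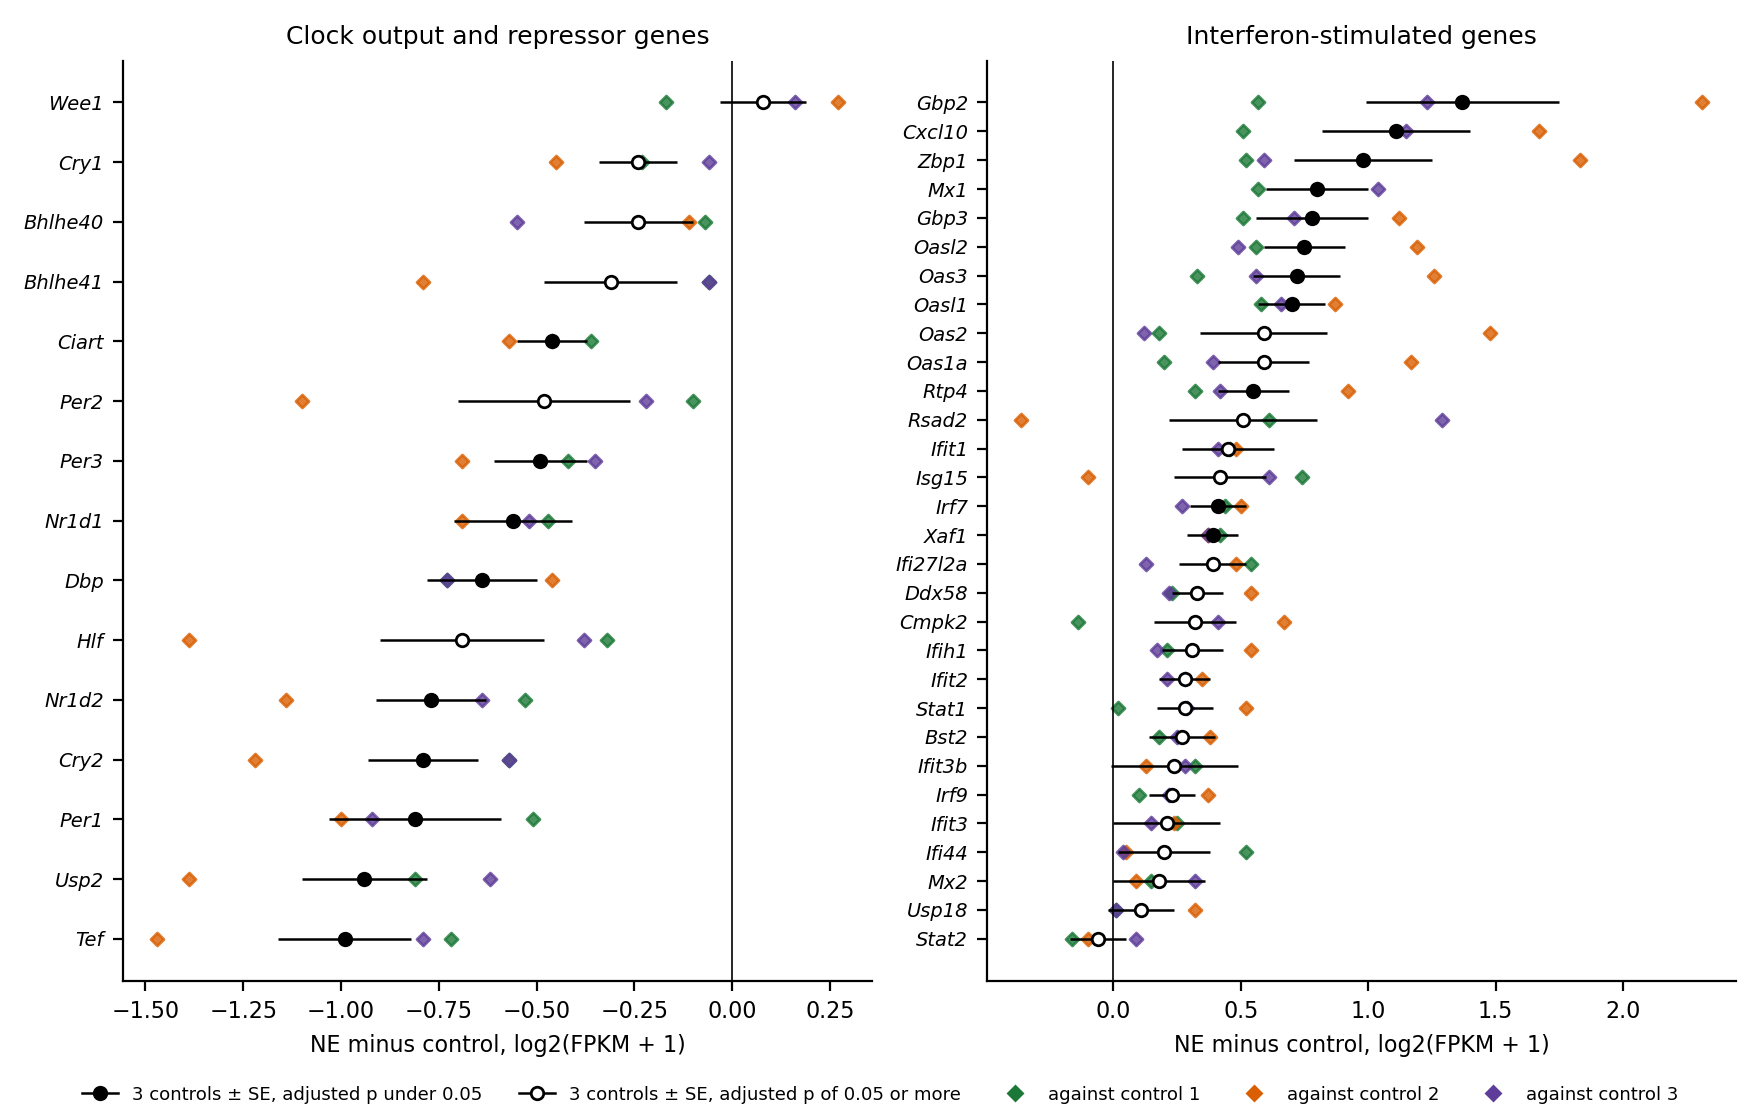
Fold change on the log2(FPKM + 1) scale of the 15 clock output genes (left) and the 30 interferon-stimulated genes (right). Black circles with bars are the NE mean minus the mean of the 3 controls with its standard error, filled where the adjusted p is under 0.05, and diamonds are the NE mean minus each control (green, orange and purple for controls 1, 2 and 3). Filled circles number 9 on the left, all below 0, and 11 on the right, all above 0.

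Some other genes called higher follow, most of them named after their values were seen. They are single genes and do not describe the other higher calls as a group. Krt17 and Krt6a, keratins of stressed epithelium, read 5.66, 1.91 and 4.69 and 2.33, 0.76 and 0.72 FPKM in the controls and 5.62 to 18.3 and 2.19 to 7.89 FPKM in NE. The changes were 1.08 ± 0.32 (adjusted p = 0.047) and 1.13 ± 0.30 (adjusted p = 0.031). Krt17 lost its call without control 2 or 3 and without NE replicate 2, 3, 4, 5, 6 or 7 (log2 fold change 0.72 to 1.21, adjusted p = 0.049 to 0.21) and Krt6a without control 2 or 3 and without NE replicate 2, 4, 5 or 7 (log2 fold change 0.97 to 1.13, adjusted p = 0.028 to 0.13). Cd274, the checkpoint ligand PD-L1, read 13.3, 5.13 and 15.5 and 18.1 to 36.1 FPKM (1.14 ± 0.30, adjusted p = 0.031). Mir142hg, a host transcript of blood cells, read 37.8, 16.4 and 19.0 and 37.8 to 69.8 FPKM (1.05 ± 0.24, adjusted p = 0.016). For Cd274 and Mir142hg the groups did not overlap, Mir142hg by less than the rounding, but Cd274 lost its call without control 2 and without NE replicate 2, 4 or 5 (adjusted p = 0.053 to 0.11) and Mir142hg without control 2 or 3 and without NE replicate 6 (log2 fold change 0.83 to 0.97, adjusted p = 0.024 to 0.074). Gm22362, a small nucleolar RNA, was called with all 10 libraries and in each fit without a control, at 1.64 ± 0.29, on at most 13 fragments in any library.

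Stress and housekeeping lists gave no calls. This held for 23 p53 target and stress genes, 20 heat shock proteins and chaperones, 27 antioxidant genes, 12 mitochondrially encoded genes, 79 nuclear respiratory chain genes, 78 cytosolic ribosomal proteins and 25 erythroid genes. At an unadjusted p under 0.05, 6 p53 target, 7 chaperone, 1 antioxidant, 6 respiratory chain and 3 erythroid genes were lower and 1 p53 target, 2 antioxidant and 1 respiratory chain gene were higher (22.3% of all genes were lower and 10.6% higher by that rule), and the voom fit called 1 p53 target and 1 respiratory chain gene lower. Cdkn1a, the p53-induced cell cycle brake, read 23.2, 37.1 and 33.2 FPKM in the controls and 26.9 to 29.9 FPKM in NE (-0.11 ± 0.12, adjusted p = 0.52). Sod1, the cytosolic superoxide dismutase, read 166, 181 and 161 and 144 to 176 FPKM (-0.12 ± 0.10, adjusted p = 0.4), and Hspa5, the chaperone of the endoplasmic reticulum, 179, 127 and 177 and 151 to 227 FPKM (0.11 ± 0.15, adjusted p = 0.65). The chaperone list had a median of -0.15 with 15 of 20 members below 0, and 5 were lower at an adjusted p under 0.05 with no fold limit (12.0% of all genes were), as were 2 p53 targets, 1 antioxidant and 2 respiratory chain genes. The 5 were Hspa8, the constitutive cytosolic chaperone, its cochaperones Dnaja1 and Dnajb1, and Hspa4l and Hsph1, all named after their values were seen, at -0.48 ± 0.12, -0.50 ± 0.12, -0.45 ± 0.10, -0.64 ± 0.19 and -0.84 ± 0.25. With the minimum fold Hsph1 was called lower without control 1 (-1.09, adjusted p = 0.016), as was 1 erythroid gene without control 1 or 3, and 1 antioxidant gene was called higher without control 1. Without control 2 Hspa8 alone of the 5 passed (-0.42, adjusted p = 0.03). The stress-induced Hspa1a and Hspa1b and the abundant Hsp90ab1 did not pass (-0.39 ± 0.20, adjusted p = 0.2, -0.61 ± 0.27, adjusted p = 0.15 and 0.05 ± 0.13, adjusted p = 0.8). Control values lay inside or close to the NE range for Sod1, while control 2 was low for Hspa5. Control 2 alone was above all NE libraries for 18 of 25 erythroid genes (18.1% of all genes), while control 3 was below all of them for 19 (17.5%). The list medians were 0.22, -0.97 and 0.76 against controls 1, 2 and 3. An example is Hbb-bs, an adult beta globin, at 1476, 5490.0 and 953 FPKM in the controls and 1106 to 3140.0 FPKM in NE (-0.11 ± 0.50, adjusted p = 0.89). The ribosomal proteins were low in control 2 alone for 70 of 78 members (15.3% of all genes). Their list medians were 0.00, 0.56 and 0.02 against controls 1, 2 and 3, and the list median went from 0.20 to -0.04 after quantile normalization.

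Of 30 cell cycle genes, which mark dividing cells, none was called by limma or by its voom fit. At an unadjusted p under 0.05, 27 were higher and none lower (10.6% of all genes were higher). Of these genes 9 were higher at an adjusted p under 0.05 with no fold limit, among them Mki67, the proliferation antigen, at 67.0, 39.4 and 54.0 FPKM in the controls and 62.7 to 89.8 FPKM in NE (0.53 ± 0.16, adjusted p = 0.049, and 0.33, adjusted p = 0.19 without control 2). With the minimum fold, 1 member was called higher without control 1 (0.959% of all genes were). The list median was 0.52, or 0.26 without control 2, and 0.04, 1.06 and 0.48 against controls 1, 2 and 3. Control 2 lay below all 7 NE libraries for 30 of the 30 members (29.1% of all genes) and control 3 for 29 (17.5%), while control 1 lay inside the NE range for 25. Summed over the list, the level was 998, 492 and 772 FPKM in controls 1, 2 and 3 and 957 to 1160 FPKM in NE, so that control 1 stood with the NE libraries.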

How the data were processed

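Bulk mRNA was sequenced from cochleae of 3 control and 7 NE mice. The submitters' processing notes name Trimmomatic, HISAT2, HTSeq, Cufflinks and mm10, and versions are not given in the sources used here. The authors deposited FPKM values per gene in a single table, whose counts were divided by gene length and library total. For 97.8% of 35029 genes above 0, the FPKM were whole multiples of 1 fragment (tolerance 0.02), which gave the depth and a voom fit as an alternative.

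Genes with at least 1 FPKM in at least 3 of the 10 libraries were tested in limma 3.58.1 (R 4.3.3; trended empirical Bayes) on log2(FPKM + 1), without a block. A gene was called at an adjusted p (Benjamini-Hochberg) below 0.05 where its log2 fold change was 1 or more in size. The code was tested on simulated data. Each library is a mouse, and p-values measure the spread between these mice. No libraries agreed within counting noise.

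The comparison, members and lists were chosen with earlier results of these data known. Named genes were the 8 largest changes in each direction among those called in all 10 libraries and without each control, with separate groups and a mean of at least 2 FPKM in the higher group, and in each list up to 4 called members of smallest p, the member of highest mean and the first 3 listed. Others are said to be chosen after their values were seen. Alternatives changed the pseudocount, filter, scaling, libraries, weights, block, thresholds and test. Replicate numbers did not pair the libraries. A few genes that the rule names are not reported here.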

Additional observations from a re-analysis of the deposited data

Results flagged for a closer look

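In groups of 7 libraries a value was marked where the gap to its nearest neighbor took more than 0.568 of the whole range, which chance gives in about 1 of 20 groups. Of 260 named genes 29 were marked in NE and of 51 lists 3.

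NE replicate 1 was the highest NE library for a set of cerebellar genes. Cbln3 read 3.16 FPKM there and 0.13 to 0.50 FPKM in the other 6 libraries (share of range 0.781), Gabra6 2.08 against 0 to 0.39 FPKM (0.709) and Cbln1 2.70 against 0.81 to 1.21 FPKM (0.721). The same library was highest for Neurod1 (0.789), Cnpy1 (0.68), Barhl2 (0.781), Slc1a6 (0.58), Egr4 (1.0, with 0.05 FPKM against 0) and Sp7, an osteoblast factor (0.575, with 22.4 against 10.2 to 14.3 FPKM). Each of the cerebellar genes stayed far below all controls in NE replicate 1.

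NE replicate 6 was the highest NE library for genes of neutrophils and of metabolism. S100a9 read 30213 FPKM there and 17150.0 to 19730.0 FPKM in the others (0.752), Ly6c2 345 against 246 to 257 FPKM (0.877) and Gpx1, a glutathione peroxidase, 817 against 514 to 546 FPKM (0.872). It was also highest for Prtn3 (0.658), Ngp (0.61), Cox8a (0.728), Atp5c1 (0.74), Rpl10 (0.618) and Nr4a1 (0.587), and for the mean levels of the specific granule list (0.641), the late neutrophil list (0.77) and the antioxidant list (0.575). It was the lowest for Ntrk3 (0.622), Kcna1 (0.57, at 0.88 against 2.54 to 4.71 FPKM), Epx (0.569), Tef (0.568), Clock (0.598) and Cry2 (0.678).

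NE replicate 3 was highest for Rims1 (0.617) and Vamp2 (0.574) and lowest for Dbp (0.577) and Nr1d1 (0.704), where it read 5.68 FPKM against 8.77 to 10.5 FPKM. NE replicate 5 was highest for Hspa5 (0.632), at 227 against 151 to 175 FPKM.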

How the results depend on the processing

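The 875 lower calls became 553 without control 2 and 340 when the filter was also set again, an alternative chosen after seeing the data, 1909 with no minimum fold and 3557 at an unadjusted p with no minimum fold. Leaving out 1 library gave 553 to 1090 lower calls for the controls and 832 to 909 for NE, and other settings gave 673 (array weights) to 1189 (voom). The 43 higher calls became 79 with a pseudocount of 0.1, 17 with no filter, 86 with all 17 libraries in 1 model, 137 with array weights, 338 with no minimum fold, 112 at an unadjusted p with the minimum fold and 1695 without it. They numbered 31 to 153 with 1 control left out, 21 to 51 with 1 NE library left out, and 144, 28 and 85 without control 1, 2 or 3 and the filter set again. The cause of these shifts was not tested.

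With the replicate number as a block, 0 genes were called in limma in either direction, with 1566 lower and 504 higher at an unadjusted p under 0.05, and 95 of 260 named genes lost their call. Same-numbered libraries deviated together at 0.02, -0.13 and -0.23, so the numbers do not pair them, and the block uses only the 6 libraries that share a number.

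Rescaling moved the median of all genes from -0.04 to 0.06 (median ratio and quantile). Under those 2 settings the list medians of immediate early genes and of p53 targets turned from below 0 to above it, as did those of erythroid and osteoblast genes with the median ratio only. Il1a and Tnf were reversed with array weights, to -1.12 (adjusted p = 0.026) and -1.40 (adjusted p = 0.0051), where control 3 had a weight of 4.62 and control 2 of 0.0801. Counting error is largest for short and low genes, such as Gm22362 with at most 13 fragments in any library, and the filter rather than depth sets which genes were tested.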
